A study of Homo sapiens with 60 samples.

Results

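Cells given the high dose of an ethanol extract of Glycyrrhizae Radix (licorice root), 350 µg/mL, were compared with cells given its medium dose, 70 µg/mL. The 6 libraries of this comparison, 3 at each dose, were chosen by their labels from the 60 libraries of the series. All came from HT29, an established human colorectal adenocarcinoma line, after 24 h with the extract. The low dose of 14 µg/mL (3 libraries) served to measure the preceding dose step, and vehicle (0.1% DMSO, 3 libraries) gave the level without extract. Each step is 5-fold, and by the labels' dose rule 350 µg/mL is the IC20 of the extract, its concentration of 20% inhibition. The ethanol extracts of Ginseng and Atractylodes, each at 500 and 100 µg/mL with 3 libraries per dose, gave the same dose step for other plants. The titles name Batch C for all of these libraries, vehicle included. Sample codes begin with 10 for Glycyrrhiza and Ginseng, with 9 for Atractylodes and with C1 for vehicle. The labels do not say what these leading codes stand for. The high and medium doses share theirs, and vehicle has another.

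Total counts ran from 20.08 M to 25.07 M at the high dose and from 23.28 M to 25.55 M at the medium dose. Log2 levels correlated across genes at r of 0.9909 to 0.9912 within the high dose, 0.9921 to 0.9923 within the medium dose, 0.9864 to 0.9885 between them and 0.9909 to 0.9928 between the medium and low doses. Genes are not independent replicates, so these values only describe the libraries. The labels do not say that the 3 libraries of a dose came from separate cultures, so p-values measure only how these libraries vary, and that variation may be technical. The summed level of 11 colorectal epithelial markers was 13550 to 13710 CPM (counts per 1 M counts) at the high dose and 13060 to 13600 at the medium dose. Of that list 4 rose and 1 fell at an edgeR adjusted p below 0.05, and CDX1 was its marker near the detection limit. Of 7 leukocyte markers, 4 were tested, with a summed level of 1470 to 1572 CPM at the high dose and 1427 to 1573 at the medium dose. LYZ, lysozyme, held most of that sum, at a mean of 1510 and 1487 CPM, and CD68 was at 9.13 and 7.64, CD14 at 4.02 and 3.93 and ITGAM at 1.65 and 1.89. Of 5 endothelial markers, 2 were tested, PECAM1 and CLDN5, with sums of 1.38 to 1.85 and 1.54 to 2.33 CPM. None of these 6 was called, and PTPRC and CD3E of leukocytes and VWF, CDH5 and KDR of endothelium were too low to be tested. Of 7 fibroblast markers, 2 were tested, with sums of 2.988 to 3.895 CPM at the high and 2.333 to 2.452 at the medium dose. Among them 1, LUM, rose. Mitochondrial transcripts took 8.18% ± 0.489 (SD, n = 3) of the counts at the high dose and 8.10% ± 0.659 at the medium dose.

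Several stress programmes of epithelial cells are read from their target genes. The transcription factor ATF4 is translated when the integrated stress response slows general protein synthesis, and it raises genes of amino acid synthesis, amino acid uptake and tRNA charging. The unfolded protein response raises chaperones and degradation factors of the endoplasmic reticulum (ER). NRF2 responds to electrophiles and oxidants by raising detoxification and glutathione genes, and the aryl hydrocarbon receptor (AhR) binds planar ligands, including plant flavonoids, and raises cytochromes of the CYP1 family.

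The last dose step changed many genes, and the step before it changed none at the same threshold. Of 16445 tested genes, 2185 rose (13.3%) and 1678 fell (10.2%) from 70 to 350 µg/mL at an edgeR adjusted p below 0.05. At least a doubling or halving was seen for 157 and 132 of these. The counts of gene list members given below are to be read beside the shares of 13.3% and 10.2%. From 14 to 70 µg/mL 0 genes rose and 0 fell (0% in either direction), the smallest edgeR adjusted p was 0.709, and 999 genes had an unadjusted p below 0.05, while DESeq2 called 2. Without the filter on low counts the lower step had 127 calls and the upper step 3544. The medians over all tested genes were near 0, at -0.01 in the upper step and 0.00 in the lower step. In RNA from whole cultures, fewer cells of a type and less RNA per cell cannot be told apart.

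A count of 0 in the lower step does not by itself show that a gene moved more in the upper one, so the difference of the 2 steps was tested directly. The upper step was the higher of the 2 for 867 genes (5.27%) and the lower for 469 (2.85%). Both this difference and the rise from 70 to 350 µg/mL were called for 859 genes (5.22%), and both were called downward for 461 (2.8%). These 1320 genes are the ones said below to belong to the upper step. Both calls use the medium dose libraries, so a gene that stood apart mainly at the medium dose can also meet them. MKI67, among the falls, had means of 842.1 CPM at the high, 986.5 at the medium and 851.6 at the low dose. The remaining genes called from 70 to 350 µg/mL had changes whose size could not be told from that of the step before. Without medium dose library 2, 825 genes differed between the steps and 823 belonged to the upper step.

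Among genes of at least 5 CPM in the higher group whose doses did not overlap, the largest rises were in xenobiotic, amino acid and stress genes. CYP1A1, which encodes a cytochrome P450 that oxidises polycyclic aromatic compounds (GRCh38 chromosome 15, 74719542 to 74725610), was at 23.7, 24.8 and 30.2 CPM in the high dose libraries and at 1.35, 0.553 and 0.855 CPM in the medium dose libraries. The groups were far apart, with a log2 fold change of 4.83 ± 0.33 (SE; edgeR adjusted p = 1.2e-15). Low dose libraries lay between 0.56 and 0.79 CPM, and 1 vehicle library, at 5.08 CPM, stood above the other two at 0.61 and 0.85. SLC6A9, the glycine transporter GLYT1 (chromosome 1, 43991500 to 44031467), was at 8.55, 9.38 and 8.88 CPM against 0.409, 0.870 and 0.984. Its log2 fold change was 3.56 ± 0.22 (adjusted p = 6.3e-20). Next came CHAC1, a glutathione-degrading enzyme, with 2.58 ± 0.12, the peptide hormone gene ADM2 with 2.46 ± 0.16, and DDIT4, an inhibitor of mTORC1 signalling, with 2.08 ± 0.08. AHNAK2, a large scaffold protein gene, IGFL2-AS1, DDIT3, ABCG1, SLC38A4, ASNS and NIBAN1 completed the 12 largest rises, at 1.99 to 1.80. IGFL2-AS1 is annotated as a long intergenic noncoding gene. CYP1A1, SLC6A9, CHAC1, DDIT4, ADM2, IGFL2-AS1, DDIT3 and AHNAK2 were also the 8 largest rises by the difference of the steps.

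**Figure D1:**
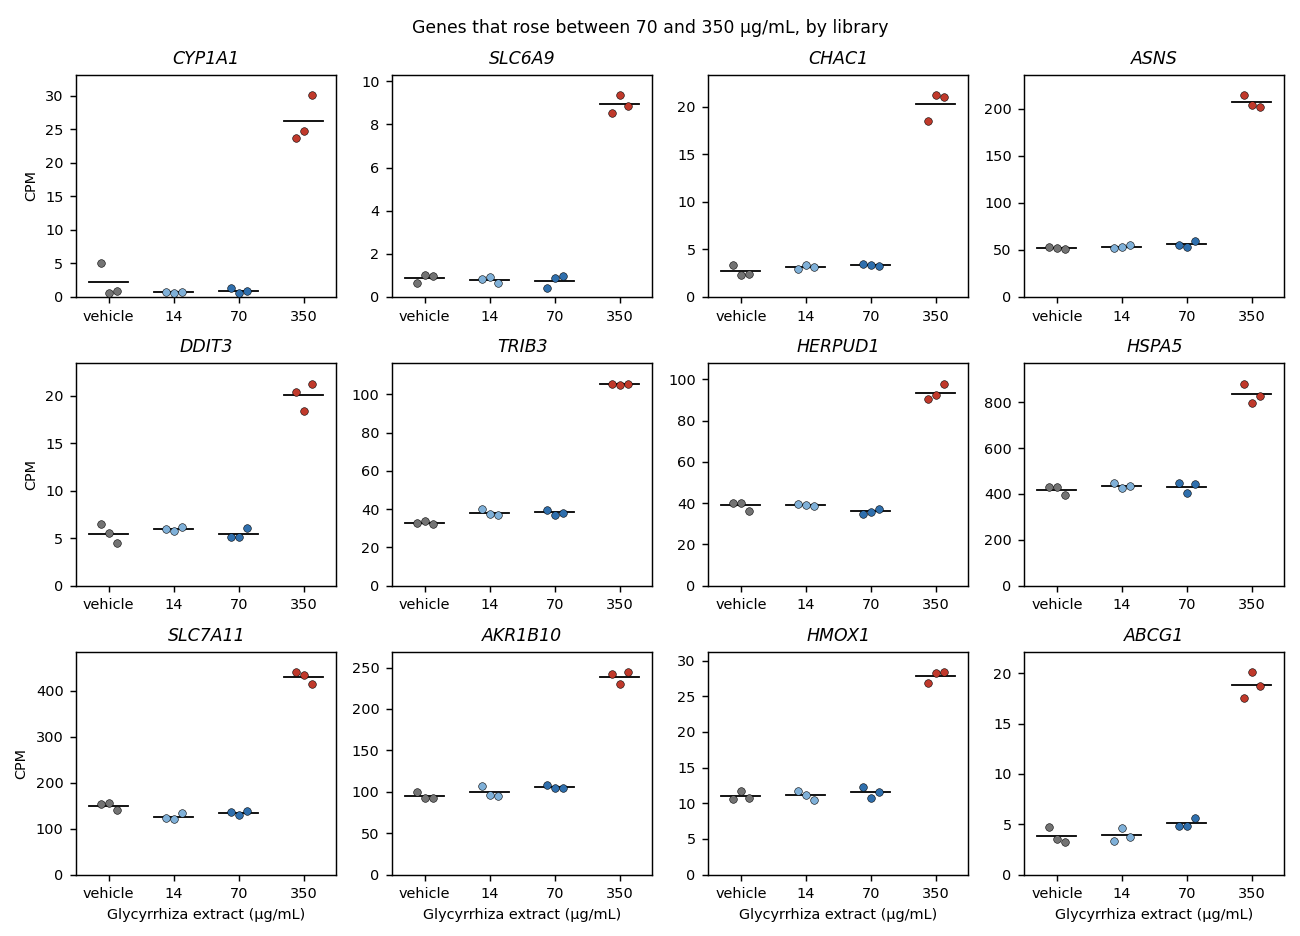
CPM (vertical axes, linear from 0) of 12 genes in each library of vehicle and of 14, 70 and 350 µg/mL Glycyrrhiza extract (horizontal axes). Points are libraries and bars are means of 3. In every panel the 3 libraries at 350 µg/mL lie above all others. For genes taken from the largest rises, non-overlap with 70 µg/mL was a condition of choice.

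**Figure D2:**
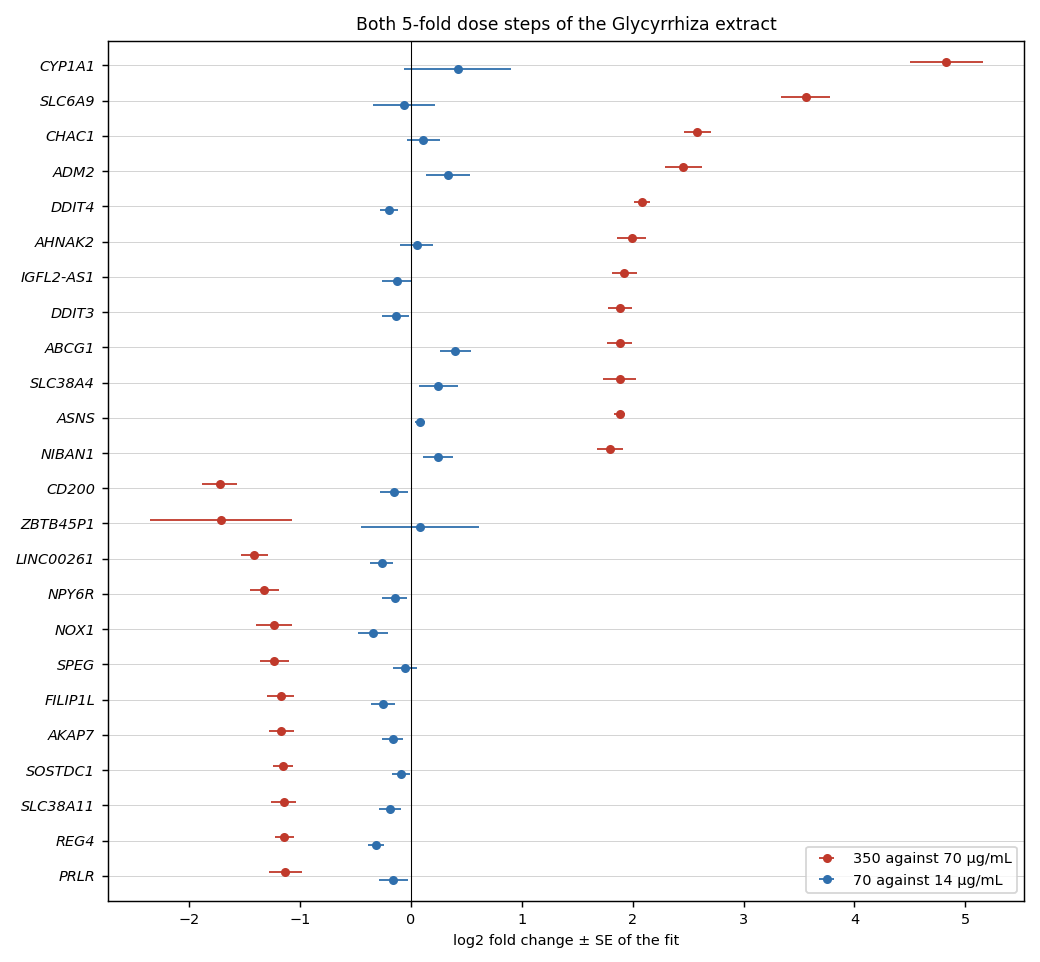
Log2 fold change with an approximate standard error (horizontal axis) of the 12 largest rises and 12 largest falls for both 5-fold dose steps. Points of the upper step lie farther from 0 than those of the lower step, none of which was called. Lower step points reach 0.42 for CYP1A1, 0.40 for ABCG1, -0.32 for REG4 and -0.34 for NOX1.

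The ATF4 and integrated stress response list rose almost as a whole. Of 33 tested members of 36, 32 rose and 0 fell, the median log2 fold change was 0.97 against -0.01 over all tested genes, and 31 of the rises belonged to the upper step. In the lower step the median was 0.01. ASNS, asparagine synthetase (chromosome 7, 97852118 to 97872542), was at 215, 204 and 202 CPM in high dose libraries and at 55.5, 53.6 and 59.5 CPM in medium dose libraries. The log2 fold change was 1.88 ± 0.05 (adjusted p = 6.7e-38). CHAC1 was at 18.5, 21.3 and 21.0 CPM against 3.43, 3.40 and 3.29. The spread within each dose of both genes was small beside the distance between doses. DDIT3, the stress factor CHOP, was at 20.4, 18.4 and 21.3 CPM against 5.11, 5.10 and 6.03, a log2 fold change of 1.89 ± 0.11. TRIB3, a pseudokinase that binds AKT and ATF4, was at 106, 105 and 105 CPM against 39.8, 37.1 and 38.2, with a log2 fold change of 1.46 ± 0.06. No library of one dose reached the range of the other in either gene, which for DDIT3 was a condition of its rank among the 12 largest rises.

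Enzymes of serine and glycine synthesis were among the members. PHGDH, the first enzyme of serine synthesis from glycolysis, rose by 1.14 ± 0.05 on the log2 scale, PSAT1, the aminotransferase that follows, by 1.21 ± 0.05, and PSPH, the last enzyme, by 0.34. Mitochondrial one-carbon enzymes MTHFD2 and SHMT2 rose by 0.77 and 0.56. CTH, which makes cysteine from cystathionine, rose by 1.12 ± 0.12, and PCK2, the mitochondrial phosphoenolpyruvate carboxykinase, by 1.16 ± 0.06. ATF4 itself rose from 262.3 ± 4.69 to 421.8 ± 24.0 CPM (SD, n = 3), or by 0.69 ± 0.05. Its partner genes CEBPB and CEBPG rose by 0.73 and 0.54. PPP1R15A, which encodes the phosphatase subunit that reverses the response, rose by 0.72, and SESN2, a leucine sensor that restrains mTORC1, by 0.97. EIF4EBP1, a brake on cap-dependent translation, rose by 0.80. ALDH1L2 was the tested member that was not called, at 0.506 CPM at the high and 0.687 CPM at the medium dose, and JDP2 rose by 0.77 without its step difference being called. STC2, CBS and INHBE were too low to be tested.

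Amino acid uptake followed a mixed pattern by gene. Of 17 tested transporters, 12 rose and 2 fell, with a median of 0.41, and 11 rises belonged to the upper step. SLC7A11, the cystine and glutamate exchanger (chromosome 4, 138164097 to 138242349), was at 440, 435 and 414 CPM with 350 µg/mL and at 137, 129 and 139 CPM with 70 µg/mL. Its log2 fold change of 1.67 ± 0.07 (adjusted p = 5.2e-25) separated the doses completely, and this gene stands in the ATF4, transporter and NRF2 lists at once. SLC3A2, the heavy chain that SLC7A11 pairs with, rose by 0.89 ± 0.05. The neutral amino acid carriers SLC38A4, SLC1A4 and SLC38A2 rose by 1.88, 1.22 and 0.99. The 2 falls, in SLC7A8 and SLC6A14, were in genes of at most 1.09 CPM on average. Among 20 cytosolic tRNA synthetases, 12 rose and 2 fell, with a median of 0.23. WARS1, SARS1, GARS1 and AARS1, which charge tryptophan, serine, glycine and alanine tRNAs, rose by 0.83, 0.74, 0.66 and 0.63. VARS1 and FARSB fell by 0.10 and 0.13, and the enzymes for arginine, histidine, aspartate, glutamine and lysine were not called.

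All 22 tested ER chaperone and unfolded protein response genes rose, with a median of 0.55, and 21 rises belonged to the upper step. HERPUD1, a membrane protein of ER-associated degradation, was at 90.3, 92.3 and 98.0 CPM at the high dose against 35.0, 35.9 and 37.1 CPM. The log2 fold change was 1.38 ± 0.05 (adjusted p = 2.4e-28), with no overlap between doses. HSPA5, the ER chaperone BiP (chromosome 9, 125234853 to 125241330), was at 882, 797 and 825 CPM against 448, 406 and 443, a log2 fold change of 0.95 ± 0.04. The co-chaperone genes DNAJB9 and DNAJC3 rose by 1.26 and 0.74, and HYOU1, an ER chaperone and exchange factor, by 0.80. Of the sensors and factors of the response, ERN1 rose by 0.73 ± 0.07 and XBP1 by 0.51 ± 0.04, while ATF6 rose by 0.12 ± 0.05 (adjusted p = 0.049) and did not belong to the upper step. Lectin chaperones CANX and CALR rose by 0.51 and 0.41 and the disulfide isomerases PDIA3 and PDIA6 by 0.38 and 0.37. Cytosolic heat shock proteins did not share this pattern. Of 19 tested, 1 rose and 4 fell, with a median of -0.06, where 13.3% and 10.2% of all tested genes rose and fell. HSPA1B rose by 0.22, and HSP90AA1, HSPA8 and HSPA4L fell by 0.15, 0.14 and 0.18.

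Of 35 tested NRF2 targets, 33 rose and 0 fell, with a median of 0.55, and 26 rises belonged to the upper step. HMOX1, heme oxygenase 1, was at 26.9, 28.3 and 28.4 CPM at the high dose and 12.3, 10.8 and 11.6 CPM at the medium dose. The doses did not overlap, and the log2 fold change was 1.27 ± 0.08 (adjusted p = 1.3e-18). SQSTM1, the autophagy receptor p62, which also frees NRF2 from its inhibitor, was at 958, 937 and 924 CPM against 425, 396 and 397, a log2 fold change of 1.21 ± 0.06. Of the aldo-keto reductases on the list, which reduce carbonyls, AKR1C2 and AKR1C1 rose by 1.65 ± 0.08 and 1.60 ± 0.07, AKR1B10 by 1.18 ± 0.05 and AKR1C3 by 0.95. AKR1B1 rose by 1.68 ± 0.48 from a mean of 0.15 to 0.49 CPM, its step difference was not called, and its call was lost without high dose library 1 (adjusted p = 0.0527). AKR1C1 and AKR1C2 are close paralogs whose shared reads were divided by estimation, so the division between them is uncertain. GCLC and GCLM, the subunits of the enzyme that limits glutathione synthesis, rose by 0.87 ± 0.07 and 0.83 ± 0.06. TXNRD1, thioredoxin reductase, was at 599, 577 and 560 CPM against 365, 314 and 346, a rise of 0.76 ± 0.07. The quinone reductase NQO1 rose by 0.55. NFE2L2, the gene of NRF2 itself, rose by 0.19 ± 0.04. PRDX1 and GPX2 were not called, with log2 fold changes of 0.08 and 0.13, and CBR3 was too low to be tested.

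The best known NRF2 element is TGACNNNGC, searched on both strands in the 250 bases before and 50 after each gene's start (RefSeq, GRCh38.p14). Of 24 called NRF2 list members with a promoter in the table, 6 held it (25%), against 13.6% of all 27305 promoters and 15.1% of those of tested genes. The share was not particular to this list. Called members held it in 32% of ATF4, 27.3% of mitosis, 23.8% of ER and 20% of replication promoters, and in 0% of AhR and cholesterol ones. The TXNRD1 promoter at chr12:104215529-104215828, plus strand, is shown because this gene rose and its window holds the element on each strand, in capitals.
TXNRD1: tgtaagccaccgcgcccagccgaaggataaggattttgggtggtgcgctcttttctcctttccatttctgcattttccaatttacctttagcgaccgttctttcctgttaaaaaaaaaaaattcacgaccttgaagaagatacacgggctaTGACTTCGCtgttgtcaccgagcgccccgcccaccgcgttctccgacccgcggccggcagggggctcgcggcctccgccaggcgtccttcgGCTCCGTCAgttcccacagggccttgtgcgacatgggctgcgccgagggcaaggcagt

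The ATF4 element TGATGNAAT was in 0 of 25 promoters of called ATF4 list members and in 1.02% of all promoters, which says only that these letters are not in this window. CCAAT, the box of many ER stress promoters, was in 85.7% of 21 called ER list promoters and in 35.7% of all. It was also in 81.8% of called mitosis and 73.3% of called replication promoters. The shares were 56% for called ATF4, 41.7% for NRF2 and 33.3% for AhR members, and 2 of 2 cholesterol promoters held it. These shares are descriptions and carry no test.

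Among 9 tested genes of the AhR list, 8 rose and 0 fell, with a median of 0.79, and 6 rises belonged to the upper step. After CYP1A1 the largest was CYP1B1, a cytochrome that oxidises estrogens and aromatic compounds, at 132, 119 and 128 CPM against 48.1, 44.3 and 44.5 CPM. Its log2 fold change was 1.47 ± 0.08 (adjusted p = 1.7e-18). The aldehyde dehydrogenase genes ALDH3A1 and ALDH1A3 rose by 1.14 ± 0.05 and 1.09 ± 0.07. TIPARP, which limits the receptor by ADP-ribosylation, rose by 0.79 ± 0.05 and the repressor AHRR by 0.52 ± 0.11. AHR itself was at 124.9 ± 8.09 CPM at the high dose and 119.1 ± 1.42 CPM at the medium dose and was not called. NQO1 and ALDH3A1 stand in this list and in that of NRF2. CYP1A2 was too low to be tested.

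The core of the AhR element, GCGTG, was in all 6 promoters of called members found in the table (100%) and in 36.3% of all promoters, or 49.7% of those of tested genes. These 5 letters are common, and were in 50.3% of promoters of called rises and 49.2% of called falls. Called members of other lists held them in 66.7% of ER, 64% of ATF4, 60% of replication, 54.5% of mitosis and 54.2% of NRF2 promoters. Both of the 2 called cholesterol promoters held them as well. CYP1A1 (chr15:74725479-74725778, minus strand) and ALDH1A3 (chr15:100879581-100879880, plus strand) are shown because they were among the largest rises of the list. Capitals mark the element on either strand, so that CACGC is its reverse complement.
CYP1A1: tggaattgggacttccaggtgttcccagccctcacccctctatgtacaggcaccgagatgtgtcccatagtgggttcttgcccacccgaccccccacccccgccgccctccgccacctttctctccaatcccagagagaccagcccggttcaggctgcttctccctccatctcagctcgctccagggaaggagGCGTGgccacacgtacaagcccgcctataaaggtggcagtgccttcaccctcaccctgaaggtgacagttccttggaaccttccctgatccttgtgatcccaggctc
ALDH1A3: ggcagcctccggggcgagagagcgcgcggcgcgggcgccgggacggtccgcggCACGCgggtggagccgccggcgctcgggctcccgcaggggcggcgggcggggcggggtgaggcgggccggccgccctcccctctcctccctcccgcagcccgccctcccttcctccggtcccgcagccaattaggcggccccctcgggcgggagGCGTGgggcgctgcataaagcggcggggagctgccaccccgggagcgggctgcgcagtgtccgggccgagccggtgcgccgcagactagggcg

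Other genes of drug handling moved less uniformly. Of 21 tested genes of drug metabolism and efflux, 10 rose and 1 fell, with a median of 0.35. CYP2B6, a cytochrome of drug oxidation, rose by 1.13 ± 0.13 and the efflux pump ABCC2 by 1.15 ± 0.22. UGT1A9 rose by 1.28 ± 0.28 at 0.64 to 2.10 CPM, and genes of the UGT1A locus share exons, so its counts are uncertain. UGT2B15 fell, at under 0.1 CPM in each high dose library and at 0.818, 0.158 and 0.128 CPM in the medium dose libraries. Its call rests on few counts, most of them in medium dose library 1.

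Lists of lipid genes differed in their calls, and SREBF1 stands in both the LXR and the fatty acid lists. All 7 tested LXR targets rose, with a median of 0.39, but 2 of them, ABCG1 and SREBF1, belonged to the upper step. ABCG1, which exports cholesterol to lipoproteins (chromosome 21, 42199689 to 42297244), was at 17.6, 20.1 and 18.8 CPM against 4.82, 4.86 and 5.60 CPM. Its log2 fold change was 1.88 ± 0.11 (adjusted p = 5.5e-20), while ABCA1, the other exporter of the list, rose by 0.36 ± 0.12. Of 25 genes of cholesterol synthesis and SREBP2, 3 rose and 1 fell, with a median of 0.00. Of all tested genes, 13.3% rose and 10.2% fell. Among the rises, STARD4, a sterol carrier, rose by 0.33 and SREBF2 by 0.12. The call of STARD4 was lost without high dose library 1 or medium dose library 2 or 3, and that of SREBF2 without high dose library 2 or medium dose library 2 or 3 or without the low count filter. The list had 2 calls without high dose library 1 or medium dose library 2 or 3. HMGCS1 was at 215, 193 and 195 CPM against 260, 211 and 239 and was not called (adjusted p = 0.11), though it was without the low count filter (adjusted p = 1.2e-05). INSIG1 was at 156, 145 and 144 CPM against 161, 145 and 145 CPM. Of 12 genes of fatty acid synthesis, 6 rose and 1 fell, among them the desaturase SCD with 0.52 ± 0.04. Of 13 PPAR targets, 7 rose and 1 fell, led by FABP1, the liver fatty acid binding protein, with 1.28 ± 0.19 and PDK4, which holds back pyruvate oxidation, with 0.92 ± 0.10.

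Genes of autophagy and lysosomes rose in 18 of 27 tested, with 0 falls and a median of 0.27. WIPI1, GABARAPL1 and MAP1LC3B, which build the autophagosome, rose by 1.09, 1.00 and 0.65, and ULK1, the starting kinase, by 0.56. CTSD, a lysosomal protease, rose from 763.3 ± 12.7 to 1097 ± 27.1 CPM, while the lysosomal genes LAMP1 and CTSB were not called. Of 17 genes repressed by PI3K-AKT through FOXO, 10 rose and 1 fell. KLHL24, TXNIP and PDK4 rose by 0.66, 0.64 and 0.92, and SESN1, a sestrin, fell by 0.65.

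Early response and growth factor genes were mostly higher at the high dose. Of 17 tested immediate early factors 12 rose and 0 fell, with a median of 0.40. ATF3 and FOSB rose by 1.28 ± 0.12 and 1.24 ± 0.13, KLF4 by 0.77 and JUN by 0.32, and MYC, at 303.2 ± 16.6 against 287.2 ± 6.24 CPM, was not called. Of 11 genes of EGFR ligands and receptors, 8 rose and 1 fell. The ligand genes HBEGF, EREG, TGFA and AREG rose by 0.93, 0.66, 0.42 and 0.41, and LRIG1, an inhibitor of the receptor, fell by 0.56. DUSP5, a phosphatase that limits ERK, rose by 1.57 ± 0.12, and the inhibitor SPRY1 fell by 0.54. MAPK feedback genes rose in 8 of 18 and fell in 1.

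Cell death and cytokine genes changed in part. Of 20 apoptosis regulators, 8 rose and 0 fell, with a median of 0.13. These included BMF, BBC3 and PMAIP1, pro-apoptotic BH3-only genes, with 0.83, 0.59 and 0.59, and also the inhibitors BIRC3 and MCL1 with 0.68 and 0.22. The p53 list, in a line known for mutant p53, rose in 6 of 21 and fell in 2. CDKN1A, the cell cycle inhibitor p21, was at 29.1, 29.4 and 28.6 CPM against 15.3, 14.4 and 14.9, a rise of 0.96 ± 0.08 (adjusted p = 8.0e-15). GDF15, which is also on the ATF4 list, rose by 1.65 ± 0.07, BTG2 fell by 0.97 ± 0.07, and MDM2 and BAX were not called. NF-kB and inflammatory genes rose in 10 of 21 and fell in 2. RELB and NFKB2 rose by 0.69 and 0.63 and the inhibitor NFKBIA by 0.50, while CXCL1 stayed at 1.69 against 1.75 CPM. Interferon response genes rose in 4 of 30 and fell in 6, beside 13.3% and 10.2% of all tested genes. In this list OAS1 rose by 0.52, and IFI44 fell to 2.67, 2.36 and 3.38 CPM from 4.66, 5.42 and 5.64.

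**Figure D3:**
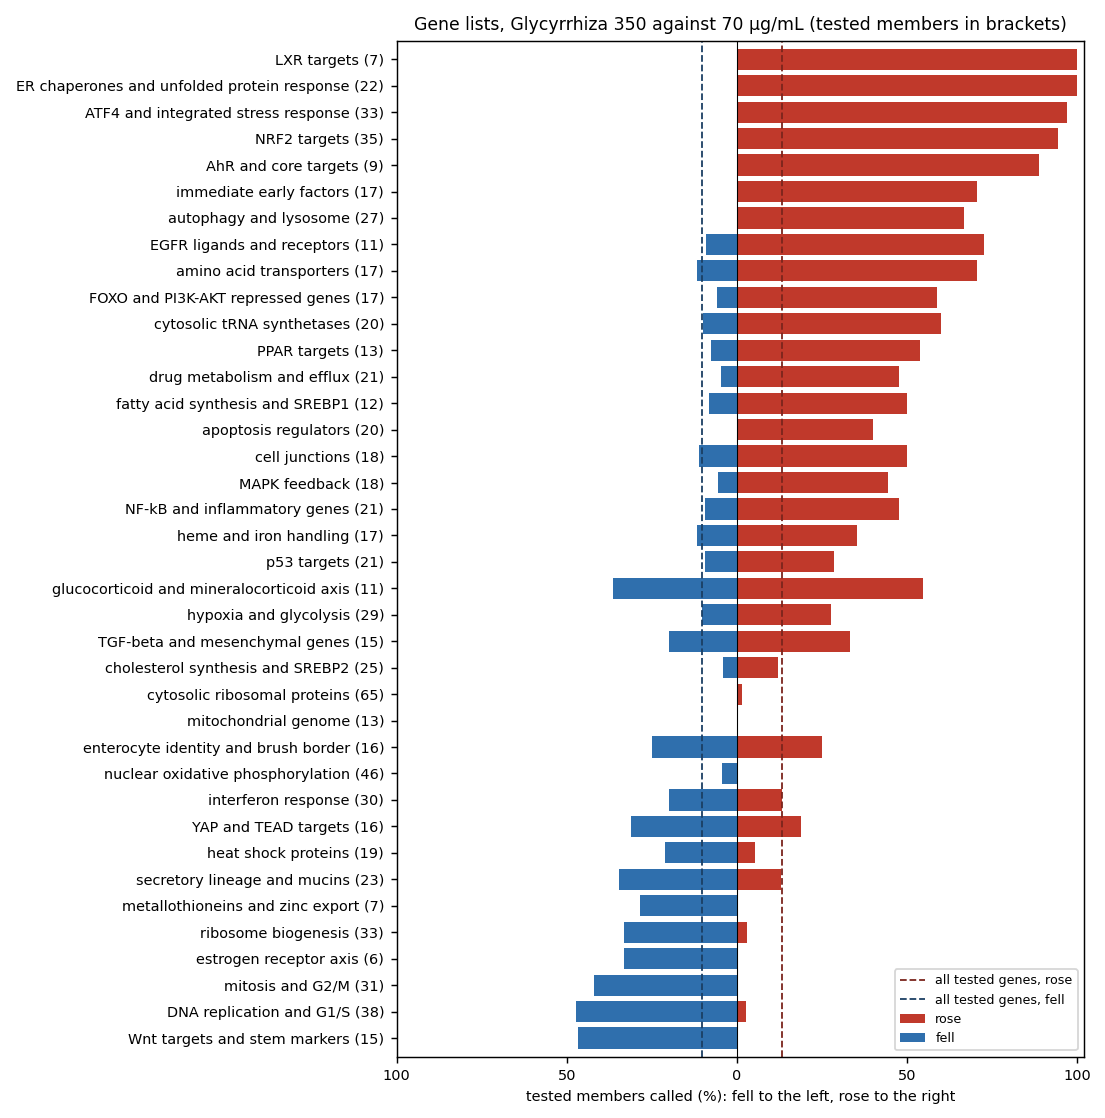
Share of tested members of each gene list that rose (right) or fell (left) from 70 to 350 µg/mL, with the number tested in brackets. Dashed lines give 13.3% and 10.2%, the shares of all tested genes. The LXR, ER chaperone, ATF4, NRF2 and AhR lists reach furthest to the right, and the Wnt, DNA replication and mitosis lists furthest to the left.

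By the same criteria, the largest falls were smaller than the largest rises. CD200, an immune checkpoint ligand (chromosome 3, 112332347 to 112362812), was at 1.89, 2.25 and 1.69 CPM at the high dose and 5.84, 7.16 and 6.16 CPM at the medium dose. Its log2 fold change was -1.73 ± 0.16 (adjusted p = 1.5e-13). LINC00261, a long noncoding RNA of endoderm, fell by 1.41 ± 0.12 and NOX1, the NADPH oxidase of colon epithelium, by 1.24 ± 0.16. NPY6R, SPEG, FILIP1L, AKAP7, SOSTDC1, SLC38A11, REG4 and PRLR fell by 1.32 to 1.13. ZBTB45P1, a pseudogene, was at 0, 5.02 and 5.93 CPM against 9.97, 17.1 and 7.70, and its call (adjusted p = 0.047) was lost without high dose library 1, which held no count of it (adjusted p = 0.264), and also without high dose library 2 or medium dose library 1 or 2, with DESeq2, with the replicate block and with the Glycyrrhiza libraries fitted alone. NPY6R is also a pseudogene, and reads of such copies are uncertain. Of these 12, CD200, LINC00261, NPY6R, SPEG and SOSTDC1 were also among the 8 largest falls by step difference. SMPD3, a neutral sphingomyelinase, and KCNJ3 were among those 8 but not among the 12.

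**Figure D4:**
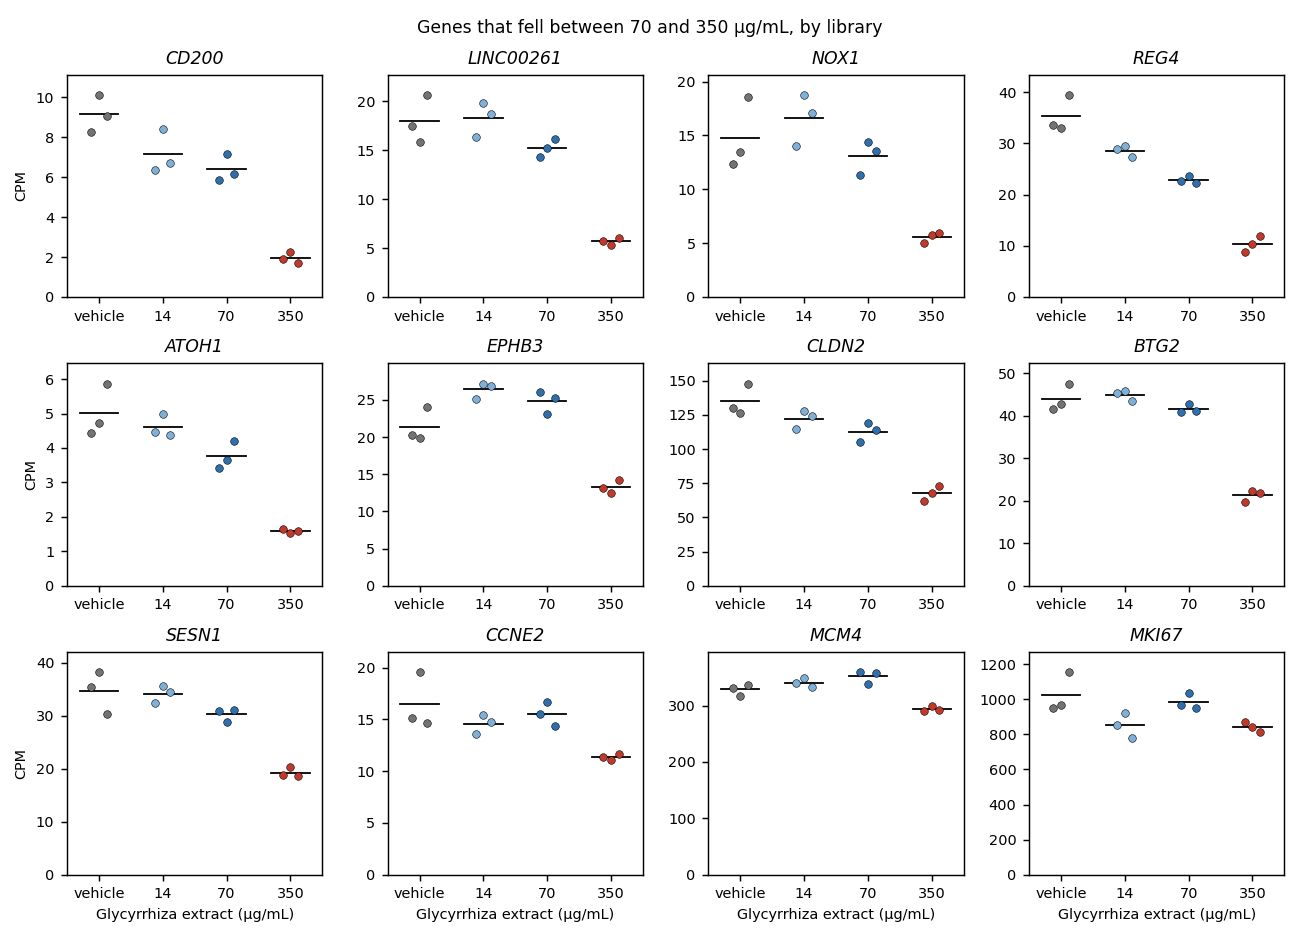
CPM (vertical axes, linear from 0) of 12 genes in each library of vehicle and of 14, 70 and 350 µg/mL Glycyrrhiza extract (horizontal axes). Points are libraries and bars are means of 3. In every panel the 3 libraries at 350 µg/mL lie below the 3 at 70 µg/mL. For genes taken from the largest falls this was a condition of choice.

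Many proliferation genes fell by small amounts from the medium to the high dose. Of 38 DNA replication and G1/S genes, 18 fell and 1 rose, with a median of -0.11, and 8 falls belonged to the upper step. In the lower step the list's median was 0.04, with 0 calls. CCNE2, cyclin E2, was at 11.3, 11.1 and 11.7 CPM against 15.6, 16.6 and 14.4, a log2 fold change of -0.45 ± 0.09. MCM4, a subunit of the replicative helicase, was at 290, 299 and 292 CPM against 359, 339 and 359 CPM, a log2 fold change of -0.26 ± 0.04 (adjusted p = 5.4e-08). The licensing factor CDC6 rose by 0.20, and PCNA was not called. Of 31 mitosis and G2/M genes, 13 fell and 0 rose, with a median of -0.11, and 8 falls belonged to the upper step. The lower step had a median of 0.08 and 0 calls. MKI67, the proliferation antigen Ki-67, was at 874, 841 and 812 CPM against 970, 1036 and 954, a log2 fold change of -0.23 ± 0.06 (adjusted p = 0.0056). Low dose libraries held 853, 921 and 782 CPM of MKI67, which overlapped the high dose, and vehicle libraries 950, 966 and 1155. KIF20A and AURKA, a kinesin and a kinase of mitosis, fell by 0.26 and 0.23, and TOP2A, CCNB1 and CDK1 were not called. Without high dose library 2 or 3, 8 mitosis genes fell. The element TTTGGCGC of E2F was in 40% of 15 called replication gene promoters and 0.659% of all, and TTTGAA, the core of the cell cycle element CHR, was in 63.6% of 11 called mitosis gene promoters and 15.4% of all. Ribosome biogenesis genes fell in 11 of 33 and rose in 1, led by NAT10 and LYAR, which fell by 0.27 and 0.26.

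Wnt target and stem cell genes fell or were not called. Of 15 tested, 7 fell and 0 rose, with a median of -0.23. EPHB3, a receptor that positions crypt cells, was at 13.1, 12.5 and 14.2 CPM against 26.0, 23.1 and 25.3, a log2 fold change of -0.90 ± 0.08. LGR5, the stem cell receptor, fell by 0.30 ± 0.06 and CD44 by 0.23 ± 0.04, while AXIN2 and SOX9 were not called. Of 23 genes of the secretory lineage, 8 fell and 3 rose. REG4 (chromosome 1, 119794018 to 119811660), a lectin of secretory cells, was at 8.88, 10.3 and 11.9 CPM against 22.7, 23.7 and 22.3. Its log2 fold change was -1.14 ± 0.08, and ATOH1, the factor that specifies secretory cells, changed by -1.23 ± 0.18. The membrane mucins went opposite ways, with MUC13 falling by 0.78 and MUC17 rising by 1.06. MUC2, the main gel-forming mucin, was at 13.7, 13.4 and 13.7 CPM against 14.8, 19.1 and 17.8 and was not called (adjusted p = 0.077). It was called without medium dose library 1 (adjusted p = 0.0324), without the low count filter, with the Glycyrrhiza libraries fitted alone, and in the fit with mitochondrial share as covariate.

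Enterocyte genes were divided as well, 4 of 16 rising and 4 falling. KRT20, a keratin of differentiated cells, rose by 0.74 ± 0.06 and CDHR5, a brush border cadherin, by 0.64 ± 0.07. VIL1, villin, fell by 0.49 ± 0.04 and the factor HNF4A by 0.37 ± 0.06. Of the junction genes 9 of 18 rose and 2 fell. CLDN2, the claudin of leaky junctions, was at 62.0, 67.8 and 72.7 CPM against 105, 119 and 114, a log2 fold change of -0.74 ± 0.07, and the desmosomal cadherin DSC2 rose by 0.61. HSD11B2, the cortisol-inactivating enzyme that licorice compounds are known to inhibit, was at 5.71, 5.12 and 4.89 CPM against 7.85, 7.32 and 8.00, a log2 fold change of -0.55 ± 0.10. In its list, 6 of 11 steroid axis genes rose and 4 fell, with KLF9 and TSC22D3, targets of the glucocorticoid receptor, rising by 0.85 and 0.71. Without high dose library 3, 4 rose and 2 fell. NR3C1, the gene of the glucocorticoid receptor, had 0 counts at either dose and was not tested.

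Energy and translation lists had few calls. The 13 protein genes of the mitochondrial genome had 0 calls in either direction, 2 of 46 nuclear oxidative phosphorylation genes fell and 0 rose, and 1 of 65 ribosomal protein genes, RPLP0, rose and 0 fell. Without the low count filter 4 of the 13 mitochondrial genes fell, and 2 oxidative phosphorylation genes rose and 0 fell. With the Glycyrrhiza libraries fitted alone 4 oxidative phosphorylation genes rose and 1 fell, and 13 ribosomal protein genes rose. RPLP0 was not called without medium dose library 3. The 2 oxidative phosphorylation calls were lost without any 1 of the 6 libraries other than high dose library 2, where 1 remained. The mitochondrial ribosomal RNA genes MT-RNR2 and MT-RNR1 rose by 0.47 ± 0.11 and 0.46 ± 0.15, with neither step difference called. LUM, a fibroblast marker, rose by 1.01 ± 0.26 at 0.74 to 2.05 CPM. Their part in the results above was not tested.

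The same dose step of other plant extracts was set beside that of Glycyrrhiza. From 100 to 500 µg/mL, 94 genes rose (0.572%) and 80 fell (0.486%) with Ginseng, and 122 rose (0.742%) and 112 fell (0.681%) with Atractylodes. By the labels' dose rule 500 µg/mL was the high dose where the IC20 was not lower, so the steps lie at other concentrations and were compared as each extract's own. The Glycyrrhiza step was higher than the Ginseng step for 1198 genes (7.28%) and lower for 699 (4.25%). Against Atractylodes it was higher for 1161 (7.06%) and lower for 635 (3.86%).

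ATF4 and ER stress genes set the Glycyrrhiza step apart from both. Of 33 ATF4 list genes, 32 had a higher step than with Ginseng and 32 than with Atractylodes, and of 22 ER genes 20 and 20. ASNS changed by 0.01 ± 0.05 with Ginseng and rose by 0.25 ± 0.05 with Atractylodes, and the Glycyrrhiza step exceeded these by 1.87 ± 0.07 and 1.63 ± 0.07 (edgeR adjusted p = 1.7e-29 and 6.1e-27). HERPUD1 changed by -0.06 ± 0.06 and -0.05 ± 0.06 in them. CYP1A1 reached 1.28 CPM at high dose Ginseng and 1.32 CPM at high dose Atractylodes, and its step with Glycyrrhiza exceeded theirs by 4.28 ± 0.59 and 4.34 ± 0.56.

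NRF2 genes also rose with the other extracts, 19 of the 35 list genes with Ginseng and 24 with Atractylodes, and the Glycyrrhiza step was the higher for 18 and 11 of them. AKR1B10 rose by 0.80 ± 0.05 with Ginseng and 0.99 ± 0.05 with Atractylodes, against 1.18 ± 0.05. The difference from Atractylodes, 0.18 ± 0.08, was not called (adjusted p = 0.11), nor was that of AKR1C2, 0.29 ± 0.11 (adjusted p = 0.084). ABCG1 rose by 1.46 ± 0.11 with Atractylodes and changed by -0.18 ± 0.16 with Ginseng. The Glycyrrhiza step of ABCG1 was above that of Ginseng by 2.06 ± 0.20, and its difference from Atractylodes, 0.43 ± 0.16, was not called (adjusted p = 0.085). Of 25 cholesterol synthesis genes, 14 fell with Atractylodes and 2 with Ginseng, and the Glycyrrhiza step was higher than that of Atractylodes for 13.

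**Figure D5:**
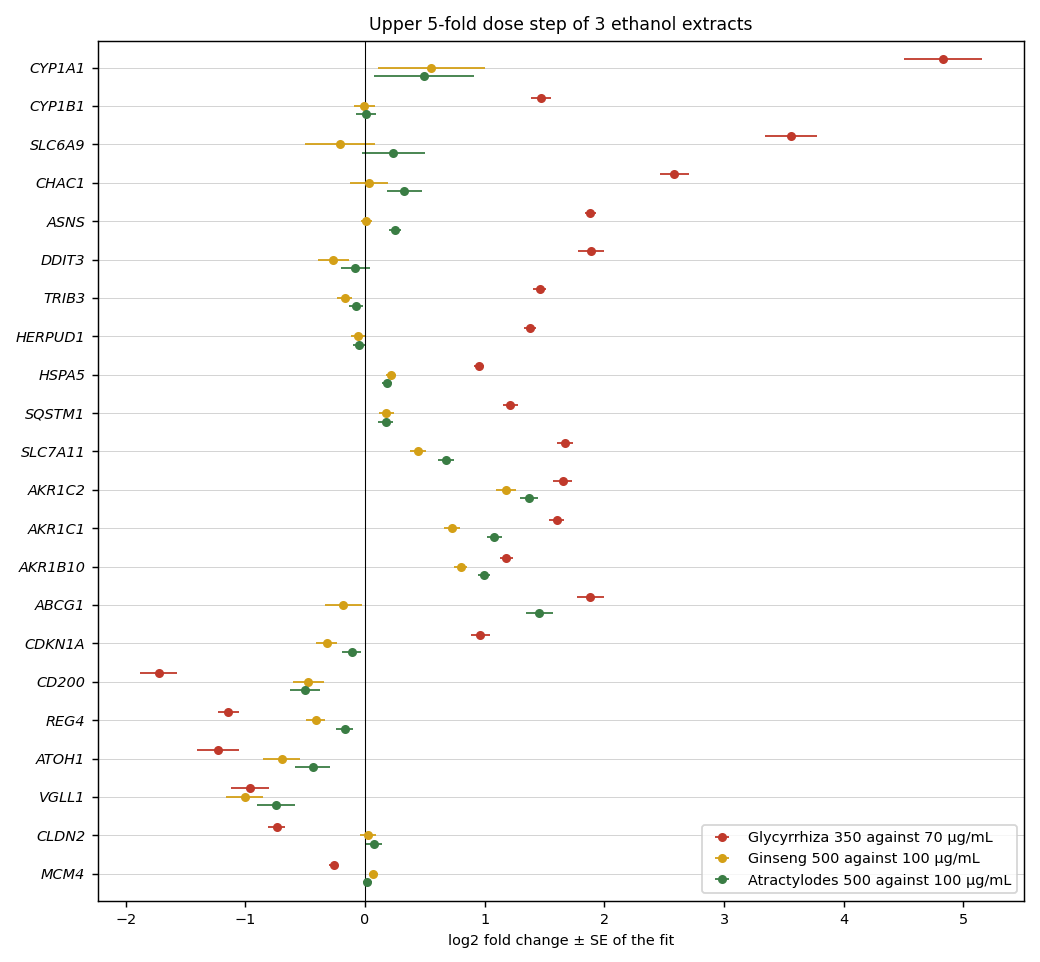
Log2 fold change with an approximate standard error (horizontal axis) of 22 genes for the upper dose step of 3 ethanol extracts. The Glycyrrhiza points of ATF4, ER and CYP1 genes lie far from the other 2 extracts, while the 3 extracts lie closer for AKR1C2, AKR1B10 and VGLL1.

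Some falls were also seen in the other extracts. Of the 12 largest Glycyrrhiza falls, LINC00261 and AKAP7 also fell with Ginseng, by 0.49 and 0.51, and with Atractylodes, by 0.43 and 0.42. REG4 and FILIP1L also fell with Ginseng, and CD200, SPEG and SOSTDC1 with Atractylodes. In each of these genes the Glycyrrhiza fall was the larger by a called difference from either extract. NPY6R, NOX1, SLC38A11, PRLR and ZBTB45P1 were called in neither. VGLL1, a cofactor of TEAD factors, changed by -0.96 ± 0.16 with Glycyrrhiza, -1.01 ± 0.16 with Ginseng and -0.74 ± 0.16 with Atractylodes, and neither difference was called. ATOH1 fell by 0.70 ± 0.15 with Ginseng, and its difference from Glycyrrhiza, -0.53 ± 0.24, was not called (adjusted p = 0.16). With Atractylodes ATOH1 changed by -0.44 ± 0.15 and was not called (edgeR adjusted p = 0.168). The Glycyrrhiza step of ATOH1 was below that of Atractylodes by 0.79 ± 0.23, which was called (edgeR adjusted p = 0.0186). CLDN2 changed by 0.02 ± 0.07 with Ginseng and 0.07 ± 0.07 with Atractylodes. The Glycyrrhiza step differed from these by -0.76 ± 0.10 and -0.81 ± 0.10. Of the replication genes, 17 of 38 had a lower step than with Ginseng and 13 than with Atractylodes, where 0 and 0 of them fell.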

How the data were processed

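RNA of HT29 cells was sequenced as strand-specific mRNA libraries, per the labels' protocols. The authors deposited expected counts per gene, estimated with RSEM 1.3.3 after FastQC 0.11.9, Trim Galore 0.6.5 and STAR 2.7.3a with the genome build hg38, as the submitters' processing notes list them. Neither the annotation release nor the strand setting of the counting is given in the sources used here, so reads of genes that overlap on opposite strands may not be told apart. RSEM divides reads shared by near-identical genes by estimation. Rounding to whole counts touched 7.7% to 9.78% of the values of a library. Another 213 sample columns of the table were not used. The labels give the vehicle as 0.1% DMSO, while the series text gives another percentage.

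One edgeR 4.0.16 model (R 4.3.3) covered the 57 libraries of all 19 groups with 3 libraries, so that they share 1 estimate of the spread (38 residual degrees of freedom, common biological coefficient of variation 0.05). TMM factors were 0.956 to 1.031, and filterByExpr kept 16445 of 60675 genes. Genes described as called, rising or falling had a Benjamini-Hochberg adjusted p below 0.05 of the quasi-likelihood test. Standard errors of log2 fold changes were derived as the size of the change divided by the square root of that test's F statistic, so they are approximate. CPM, counts per 1 M counts, were computed from the deposited counts with TMM-scaled library totals. CPM are not divided by gene length, so levels are compared between groups and not between genes. Coordinates are from GENCODE 29 and promoters from RefSeq. The script was tested on simulated data.

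Named genes were, among called genes of at least 5 CPM in the higher group with no overlap between doses, the 12 largest rises and falls, the 8 largest of each by step difference, up to 4 called members per list (largest changes, with no minimum level) and 16 genes set by name; other list members are named to account for their list. Values of some genes that this rule names are not reported here. Members and the 42 lists were chosen with earlier results of these data known; 2 of their 869 genes, UGT1A3 and SOD2, matched no identifier. No set test was run. Libraries with the same replicate number at both doses had weakly correlated deviations from their dose mean (r of 0.0432, -0.0521 and -0.0199). Such correlations over all genes cannot decide whether the numbers pair the libraries. The main fit had no replicate block, and with it 4289 rather than 3863 genes were called between the high and medium doses. Between libraries of a dose, chi-square divided by its degrees of freedom was 2.9 to 5.75, above sampling noise, and each library counted once. Alternatives were RLE factors, no low count filter, DESeq2 1.42.0, the replicate block, the extracts' libraries alone, each library left out, and, chosen after the data were seen, the mitochondrial share as a covariate.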

Additional observations from a re-analysis of the deposited data

Results flagged for a closer look

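The dose step from medium to high differed between extracts by a direct test, the interaction of extract and step in edgeR. It differed for 1897 genes between Glycyrrhiza and Ginseng and for 1796 between Glycyrrhiza and Atractylodes. Of 35 genes that lead the comparison or were set by name, 31 differed from Ginseng, 18 with a higher and 13 with a lower step in Glycyrrhiza, and 29 differed from Atractylodes. These genes were chosen partly for their Glycyrrhiza step, which enters both comparisons, so the counts describe the genes and support nothing further.

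The values that follow are the Glycyrrhiza step minus the Ginseng step, in log2 units. In order of size, the gaps of the 12 largest Glycyrrhiza rises were CYP1A1 (4.28), SLC6A9 (3.77), ADM2 (2.59), CHAC1 (2.55), DDIT4 (2.19) and DDIT3 (2.16), then IGFL2-AS1 (2.14), ABCG1 (2.06), AHNAK2 (1.95), ASNS (1.87), NIBAN1 (1.53) and SLC38A4 (1.32). Among genes set by name, the positive gaps were TRIB3 (1.63), CDKN1A (1.28), HMOX1 (1.03), HSPA5 (0.73), TXNRD1 (0.45) and AKR1B10 (0.38). The negative gaps were CD200 (-1.25), NPY6R (-0.94), LINC00261 (-0.92), SPEG (-0.90), SLC38A11 (-0.89), SOSTDC1 (-0.86), PRLR (-0.81), NOX1 (-0.81), FILIP1L (-0.75), REG4 (-0.73), HSD11B2 (-0.68), AKAP7 (-0.66) and MKI67 (-0.30). Of the genes with negative gaps, LINC00261, AKAP7, REG4 and FILIP1L also fell with Ginseng itself, by less. VGLL1 and ATOH1 were not called in this test.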

How the results depend on the processing

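Of 157 named genes, 134 kept their direction and their side of the threshold in all 12 alternatives of high against medium dose, and no gene called in that comparison changed sign in any of them. Of its 3863 calls, 2944 (without high dose library 1) to 3858 (mitochondrial share as a covariate, chosen after seeing the data) were kept with the same sign. The number of calls stayed between 3090 and 4289. Medium against low dose had 0 calls in every alternative except DESeq2 (2) and no filter on low counts (127), and the cause was not tested. Leaving out single libraries gave 825 to 1292 genes for the difference of the steps and 823 to 1274 for the upper step, the lowest without medium dose library 2, where fewer libraries were fitted. INSIG1, not called at -0.02, ranged from -0.0571 to 0.0351 when single libraries were left out, with a positive sign without high dose library 3 (0.0029) or medium dose library 1. With the replicate block the upper comparison had 4289 calls, the difference of the steps 1744, the upper step 1710, and the comparisons with Ginseng and Atractylodes 2302 and 2236. HMGCS1 was called with the block (adjusted p of 1.9e-06), and ZBTB45P1 was not (0.0641).

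Of 42 lists, 34 kept a count of calls within 1.5 times of the main one in all alternatives. The ATF4 list had 32 calls in each, ER chaperones 21 to 22, NRF2 32 to 34, AhR 8 and LXR 6 to 7. Genes below 1 CPM, such as SLC6A14, SPINK4 and UGT2B15, rest on few counts. Their calls were lost without 1 or more single libraries, as was that of HSPA8 without high dose library 2. With 3 libraries per dose, and no statement that they are separate cultures, small changes such as those of cell cycle genes are the least certain.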

Other observations

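Between 70 and 350 µg/mL, of 12914 tested protein-coding genes 16% rose and 11.9% fell, while of 718 long intergenic noncoding genes 4.18% rose and 5.43% fell, and of 1099 antisense genes 2.55% rose and 4.46% fell. The difference between classes was not tested.

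The list counts that follow stand beside 13.3% of all tested genes rising and 10.2% falling. Of 17 heme and iron genes, 6 rose and 2 fell. The largest rise of the list was that of HMOX1, given above. FTH1 and FTL, the ferritin chains, rose by 0.59 ± 0.04 and 0.54 ± 0.10, and FECH, which completes heme, by 0.41 ± 0.06. Hypoxia and glycolysis genes rose in 8 of 29 and fell in 3. NDRG1, a stress-induced gene, rose by 1.02 ± 0.09, the lactate exporter SLC16A3 by 0.78 ± 0.07 and the enolase ENO2 by 0.63 ± 0.07, while CA9, a carbonic anhydrase raised by hypoxia, fell by 0.44 ± 0.06. YAP and TEAD targets fell in 5 of 16 and rose in 3, with WWTR1, the gene of TAZ, falling by 1.17 ± 0.24 at 0.615 to 1.97 CPM. Of 15 TGF-beta and mesenchymal genes, 5 rose and 3 fell, and the regulators ID1 and ID2 went opposite ways, by 0.54 ± 0.08 and -0.77 ± 0.08. Metallothioneins fell in 2 of 7, MT1E by 0.57 ± 0.18 and MT1A by 1.00 ± 0.32, and these close paralogs share reads. Both calls were lost without high or medium dose library 1, and that of MT1A also without high dose library 3 or medium dose library 2, with DESeq2 and without the low count filter. Of 6 tested genes of the estrogen receptor axis, PDZK1 and MYB fell by 0.70 ± 0.10 and 0.44 ± 0.06, and ESR1 was too low to be tested.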
